A study of Homo sapiens with 6 samples.

Results

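The genes that encode the ligands of NKG2D were followed in Mum-2b cells, a human uveal melanoma line, after depletion of NELFCD. The 8 genes RAET1E, RAET1G, RAET1L, ULBP1, ULBP2, ULBP3, MICA and MICB were taken by gene name from the 58735 genes of the count table. The family was chosen by measured values, with the knockdown-against-control counts of these same libraries in view. Its values in that comparison are therefore given as a description and no test is built on them. The study has 6 RNA-seq libraries of this line. In 3 of them the genotype is NELFCD_knockdown (titles shRNA1_1 to shRNA1_3), and in the other 3, titled NC1 to NC3, it is WT. NELFCD belongs to the negative elongation factor complex, which keeps RNA polymerase II paused near promoters. The titles number a single hairpin, so effects of that hairpin on other targets cannot be told apart from effects of NELFCD loss. Whether replicates were separate cultures is not given, so the p-values below measure the spread between these libraries, which may be technical.

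NKG2D is an activating receptor of natural killer (NK) cells and of cytotoxic T cells. Its ligands are distant relatives of MHC class I molecules that carry no peptide, are scarce on most healthy cells and appear on stressed, infected or transformed ones. MICA and MICB are transmembrane proteins encoded in the MHC region of chromosome 6, while the RAET1 and ULBP genes form a cluster on the long arm of the same chromosome. ULBP1, ULBP2, ULBP3 and RAET1L (whose protein is also called ULBP6) are tethered to the membrane by a glycosylphosphatidylinositol (GPI) anchor, and RAET1E (ULBP4) and RAET1G (ULBP5) have transmembrane segments. Tumour cells can lose surface ligand by proteolytic shedding, and soluble ligand can blunt the receptor.

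The libraries held 14306733 to 16656630 counts. NELFCD had 20.6, 37.4 and 40.2 CPM (counts scaled to library size) in knockdown libraries 1 to 3, against 65.3, 88.2 and 83.4 CPM in control libraries 1 to 3 (exact two-sided permutation p = 0.1, the smallest for 3 against 3 libraries). In edgeR its log2 fold change was -1.27 without the replicate number in the model (adjusted p = 0.532). With that number in the model it was -1.30 ± 0.11 (SE; edgeR adjusted p = 0.00046). Replicate 1 of both groups stood apart from replicates 2 and 3. Fold changes below therefore come from the edgeR fit with the replicate number in the model unless stated. Whether libraries 2 and 3 are matched by number between the groups is not known. Of 14844 genes tested, edgeR called 0 at an adjusted p under 0.05 without the replicate number (954 at an unadjusted p under 0.05, and 161 called by DESeq2) and 2002 with it. Of 8 melanocyte lineage markers 3 passed the filter on low counts, and the summed level was 7.59 to 18.2 CPM in knockdown and 7.49 to 10.7 CPM in control libraries. None of the 3 passed in edgeR with the replicate number (0 at an unadjusted p under 0.05, and 1 in limma-voom), and their median log2 fold change was 0.46, with 3 of 3 above 0. The lineage regulator MITF averaged 3.67 CPM in knockdown and 3.07 CPM in control libraries, while TYR, the tyrosinase gene, had 1 count in 1 knockdown library and S100B 1 count in 1 control library. Of 10 NK and T cell markers, CD3E and NCR1 had no count in any library, no marker had more than 4 counts in a library, and the summed level was 0.068 to 0.464 CPM in knockdown and 0.187 to 0.752 CPM in control libraries. The receptor gene KLRK1 and its adaptors HCST and TYROBP had at most 2 counts in a library.

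The stretches below are shown because RAET1E, ULBP2 and RAET1L differed between the groups in opposite directions, while ULBP1 and ULBP3 differed between replicates. They are the 250 bases before the annotated RefSeq starts (GRCh38.p14), written 5′ to 3′ on the strand of the gene. RAET1E has another annotated start, whose window (chr6:149890945-149891194, minus strand) is not shown. That window has a GC content of 38.4% and 1 CCAAT match. Capitals mark letters that match any of 5 motifs searched on both strands. These are the TATA box with the letters TATAAA, the CCAAT box as named, the GC box with the letters GGGCGG, the AP-1 site with the letters TGANTCA and the ATF4 element with the letters TGATGNAA. Where matches touch or overlap, the capitals run together.
RAET1E, outer start, chr6:149898114-149898363, minus strand: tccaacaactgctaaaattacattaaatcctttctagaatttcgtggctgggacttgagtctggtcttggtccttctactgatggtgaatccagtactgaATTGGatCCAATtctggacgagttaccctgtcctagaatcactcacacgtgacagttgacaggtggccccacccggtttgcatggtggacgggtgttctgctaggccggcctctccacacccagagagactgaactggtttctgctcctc
RAET1E, second start, chr6:149896131-149896380, minus strand: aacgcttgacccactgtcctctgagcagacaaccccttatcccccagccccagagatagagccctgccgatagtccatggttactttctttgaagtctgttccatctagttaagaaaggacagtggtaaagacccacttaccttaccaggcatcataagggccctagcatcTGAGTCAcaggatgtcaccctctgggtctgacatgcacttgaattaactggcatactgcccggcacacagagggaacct
ULBP2, chr6:149941764-149942013, plus strand: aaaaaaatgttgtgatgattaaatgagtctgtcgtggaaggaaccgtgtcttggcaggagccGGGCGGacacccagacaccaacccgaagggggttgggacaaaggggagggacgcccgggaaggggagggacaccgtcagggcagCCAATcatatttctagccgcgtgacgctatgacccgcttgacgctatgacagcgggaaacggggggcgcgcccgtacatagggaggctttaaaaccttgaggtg
RAET1L, chr6:150025533-150025782, minus strand: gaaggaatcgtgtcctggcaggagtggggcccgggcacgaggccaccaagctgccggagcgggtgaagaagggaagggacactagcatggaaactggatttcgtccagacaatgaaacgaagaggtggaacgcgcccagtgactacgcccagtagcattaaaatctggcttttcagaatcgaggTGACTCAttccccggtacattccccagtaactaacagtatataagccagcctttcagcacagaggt
ULBP1, chr6:149963693-149963942, plus strand: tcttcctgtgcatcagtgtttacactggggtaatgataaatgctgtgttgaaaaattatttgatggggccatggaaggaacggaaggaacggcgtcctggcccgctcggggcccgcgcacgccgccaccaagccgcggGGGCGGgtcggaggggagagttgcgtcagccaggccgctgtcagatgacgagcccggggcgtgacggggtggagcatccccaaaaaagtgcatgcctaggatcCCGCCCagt
ULBP3, chr6:150069122-150069371, minus strand: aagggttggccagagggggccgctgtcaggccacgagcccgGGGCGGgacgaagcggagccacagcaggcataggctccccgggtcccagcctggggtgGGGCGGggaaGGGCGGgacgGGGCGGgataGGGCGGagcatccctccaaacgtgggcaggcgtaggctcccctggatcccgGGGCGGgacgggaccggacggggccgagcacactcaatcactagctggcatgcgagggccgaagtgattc
The GC box letters occurred 6 times before ULBP3, 2 times before ULBP1, 1 time before ULBP2 and 0 times before RAET1L and before either RAET1E start shown, and 42.6% of 35116 RefSeq promoter windows of this length hold them. TGANTCA occurred once before RAET1L and once before the second RAET1E start, against 6.57% of all windows. CCAAT stood 2 times before the outer RAET1E start and 1 time before ULBP2 (32% of all windows), and TATAAA (10.7%) and TGATGNAA (3.14%) had no match in these 6 windows. Over the 6 windows shown, the GC content ran from 50% before the outer RAET1E start to 72% before ULBP3. The ULBP2 and RAET1L windows were identical at 46.5% of aligned positions, whereas the windows of MICA and MICB were identical at 82.7%. A match of letters is a description of the window and was not tested as a binding site.

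RAET1E (ENSG00000164520, chromosome 6, 149883375 to 149898102, minus strand, hg38) was the member with higher values in the knockdown. It had 20.6, 17.3 and 16.1 CPM in knockdown libraries 1 to 3, against 4.10, 6.57 and 5.87 CPM in control libraries 1 to 3. Every knockdown library lay above every control library, and the groups did not overlap. The means were 17.99 ± 2.34 CPM in the knockdown and 5.51 ± 1.27 CPM in the control (SD, n = 3 each), a ratio of 3.26 and a log2 fold change of 1.71 ± 0.18 (SE). By replicate pair the ratio was 5.02, 2.63 and 2.74 for pairs 1 to 3. The 95% counting intervals of these ratios were 3.80 to 6.74, 2.08 to 3.36 and 2.15 to 3.52, so the interval of pair 1 lay above those of the other pairs. In pair 1, knockdown 1 was the highest knockdown library and control 1 the lowest control library. These are bulk values of a cell line, in which a different number of cells with the transcript and a different amount of transcript per cell cannot be told apart. In edgeR, RAET1E passed the threshold of an adjusted p under 0.05 with the replicate number in the model and not without it. Without that number, DESeq2 did call RAET1E (DESeq2 adjusted p = 2.16e-07).

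Part of the RAET1E count is uncertain because of shared exons. Of its exon bases 35.8% lie under exons of another gene in GENCODE release 29, most of them (35%) under AL355312.5, a gene on the same strand whose exons run on into the neighbour LRP11. AL355312.5 had 13, 16 and 17 counts in knockdown libraries 1 to 3 and 4, 3 and 7 counts in control libraries 1 to 3, where RAET1E itself had 311, 286 and 235 counts in the knockdown and 60, 93 and 94 counts in the control. The antisense gene ENSG00000223701, annotated as RAET1E-AS1, covers 2.26% of the RAET1E exons and had 2 to 7 counts in any library. Whether counting used strand, and how shared reads were divided, is not given in the sources used here. RAET1E thus had more counts than these overlapping genes in every library, and AL355312.5 was likewise higher in each knockdown library than in any control library.

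ULBP2, RAET1L and RAET1G were lower in every knockdown library than in any control library. ULBP2 (ENSG00000131015, chromosome 6, 149942000 to 149949235, plus strand), a GPI-anchored ligand, had 8.81, 7.68 and 7.18 CPM in knockdown libraries 1 to 3, against 21.3, 10.5 and 12.4 CPM in control libraries 1 to 3. The knockdown libraries sat close together, while control 1 stood well above controls 2 and 3. The means were 7.89 ± 0.835 CPM in the knockdown and 14.7 ± 5.80 CPM in the control (SD, n = 3 each), which left 53.6%, and the log2 fold change was -0.85 ± 0.17 (SE). By pair the ratio was 0.413, 0.734 and 0.581, with 95% counting intervals of 0.335 to 0.508, 0.575 to 0.937 and 0.454 to 0.740.

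RAET1L (ENSG00000155918, chromosome 6, 150018334 to 150025532, minus strand) had 12, 2 and 2 counts in knockdown libraries 1 to 3, against 44, 13 and 18 counts in control libraries 1 to 3. That is 0.795, 0.121 and 0.137 CPM in the knockdown, against 3.01, 0.918 and 1.12 CPM in the control. Replicate 1 was the highest library of each group, yet knockdown 1 remained below the lowest control. The pair ratios were 0.264, 0.132 and 0.122, and their 95% counting intervals were 0.127 to 0.509, 0.0144 to 0.582 and 0.0137 to 0.508. The log2 fold change was -2.32 ± 0.43 (SE), an estimate that rests on these few counts. RAET1G (ENSG00000203722, chromosome 6, 149916878 to 149923121, minus strand) had 2, 1 and 2 counts in knockdown libraries 1 to 3 and 4, 5 and 5 counts in control libraries 1 to 3, and did not pass the filter on low counts. The groups did not overlap, but the 95% counting interval of every pair ratio included 1 (0.0438 to 3.38, 0.0036 to 1.53 and 0.0417 to 2.68), so a difference was not detectable at this depth. Both antisense genes named RAET1E-AS1 overlap 9.29% of the RAET1G exon bases. RAET1L, with 1 AP-1 match in its window shown above, was lower in the knockdown, and RAET1E, with 1 such match before its second start and 0 before its outer start, was higher.

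ULBP2 and RAET1L are near-identical over part of their transcripts. Of the 50-base words in GENCODE transcripts of ULBP2, 29.4% also occur in RAET1L and 11.6% in RAET1G, and 29.5% of those of RAET1L occur in ULBP2. Reads from these stretches could be dropped or assigned to either gene, so the split between the genes is uncertain, and RAET1G shares 10.2% of its words with ULBP2. ULBP1 shares 6.85% and ULBP3 12.4% of their words with the pseudogene RAET1K, and MICA shares 1.89% with MICB.

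**Figure D1:**
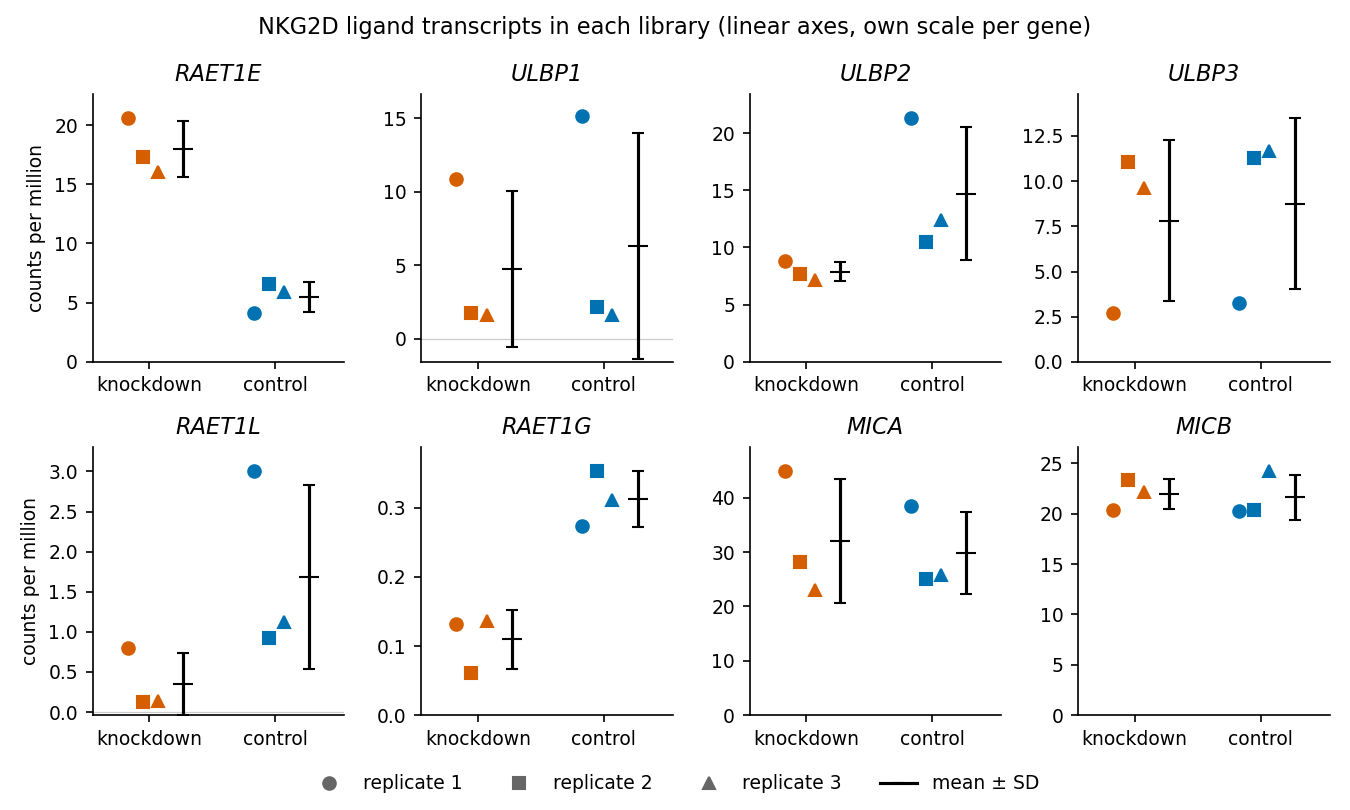
Each panel shows 1 gene, with CPM on a linear axis, the 3 knockdown libraries at left and the 3 control libraries at right, marker shapes for the replicate number, and the mean with its SD beside the points. RAET1E is higher in the knockdown (17.99 against 5.51 CPM), ULBP2, RAET1L and RAET1G are lower, and replicate 1 stands apart for ULBP1 and ULBP3 in both groups.

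ULBP1, ULBP3, MICA and MICB had overlapping groups. ULBP1 (ENSG00000111981, chromosome 6, 149964007 to 149973710, plus strand) had 10.9, 1.75 and 1.64 CPM in knockdown libraries 1 to 3, against 15.2, 2.12 and 1.62 CPM in control libraries 1 to 3. Replicate 1 was high and replicates 2 and 3 were low in each group. The log2 fold change was -0.32 ± 0.20 (SE), and the pair ratios were 0.716, 0.827 and 1.01. ULBP3 (ENSG00000131019, chromosome 6, 150063150 to 150069095, minus strand) had the opposite order, with 2.72, 11.1 and 9.64 CPM in knockdown libraries 1 to 3, against 3.28, 11.3 and 11.7 CPM in control libraries 1 to 3. It was low in replicate 1 of each group, and its log2 fold change was -0.18 ± 0.14 (SE). Neither gene passed the threshold, with or without the replicate number.

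MICA (ENSG00000204520, chromosome 6, 31399784 to 31415315, plus strand) had 44.9, 28.1 and 23.1 CPM in knockdown libraries 1 to 3, against 38.5, 25.1 and 25.8 CPM in control libraries 1 to 3. The log2 fold change was 0.08 ± 0.10 (SE), and the pair ratios of 1.17, 1.12 and 0.897 lay on either side of 1. MICB (ENSG00000204516, chromosome 6, 31494881 to 31511124, plus strand) had 20.4, 23.3 and 22.2 CPM in knockdown libraries 1 to 3, against 20.3, 20.4 and 24.2 CPM in control libraries 1 to 3. Its values were the most even of the tested members across all 6 libraries, between 20.3 and 24.2 CPM. The MICB means were 22.0 ± 1.48 CPM in the knockdown and 21.6 ± 2.25 CPM in the control (SD, n = 3 each), with a log2 fold change of 0.03 ± 0.10 (SE). The exons of MICA overlap the gene HCP5 over 2.6% of their bases, and those of MICB, ULBP1, ULBP2, ULBP3 and RAET1L overlap no other gene.

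Counted together, 4 of 8 members had groups that did not overlap, of which RAET1E was higher and the other 3 lower in the knockdown. Among the 7 tested members 3 had groups that did not overlap, where 15% of all tested genes do (7.63% higher and 7.34% lower in the knockdown). Past the adjusted threshold with the replicate number in the model were 3 of the 7 tested members (RAET1E up, ULBP2 and RAET1L down), where 13.5% of all tested genes passed (5.48% up and 8.01% down). Since the members were chosen with this contrast known, nothing is read from that share. Without the replicate number edgeR called 0 of them, with 3 at an unadjusted p under 0.05, and DESeq2 called 1 (RAET1E). The median log2 fold change was -0.18 over the 7 tested members and 0.00 over all tested genes. The sign was the same in all 3 pairs for 4 of the 7 tested members (RAET1E, RAET1L, ULBP2 and ULBP3), against 52.7% of all tested genes.

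**Figure D2:**
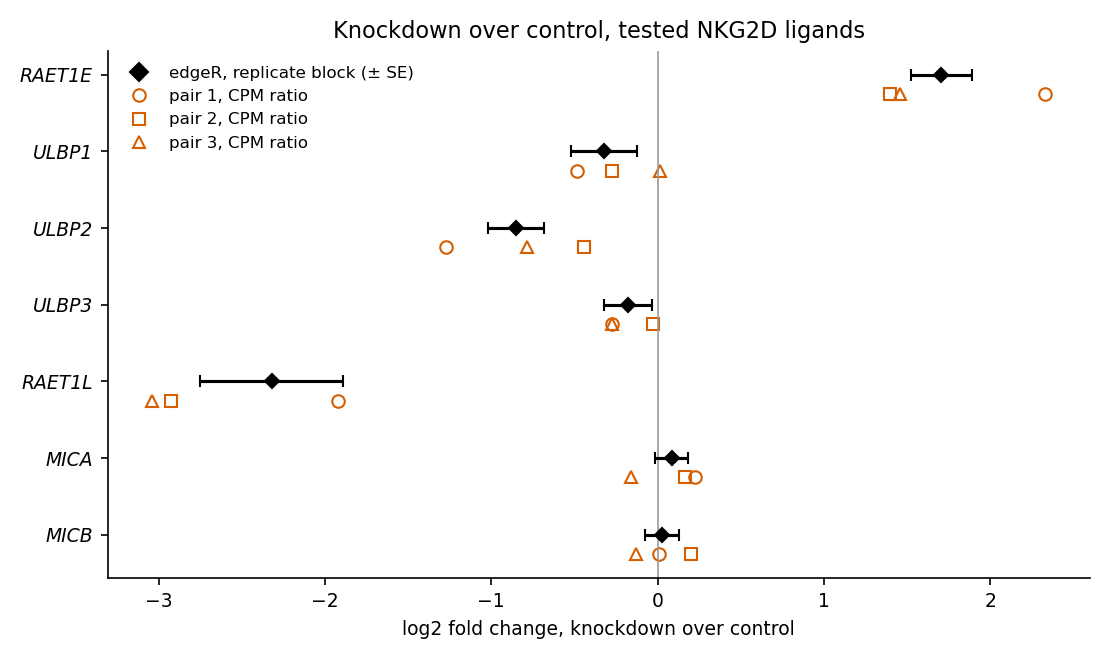
The horizontal axis is the log2 fold change of knockdown over control for the 7 tested genes, with the edgeR estimate and its SE as diamonds and the CPM ratio of each replicate pair as open symbols. RAET1E lies at 1.71, ULBP2 at -0.85 and RAET1L at -2.32, and MICA and MICB lie within 0.1 of 0.

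On the length-scaled scale of the deposited FPKM (fragments scaled to gene length and depth), the order of the ligands differed between the groups in the places of RAET1E and ULBP2. In the knockdown the order of mean FPKM levels was MICA (13.2 ± 4.41), ULBP3 (7.86 ± 4.57), MICB (7.76 ± 0.671), RAET1E (5.90 ± 0.646), ULBP2 (5.76 ± 0.494), ULBP1 (1.47 ± 1.61), RAET1L (0.253 ± 0.273) and RAET1G (0.073 ± 0.028; SD, n = 3 each). In the control it was MICA (12.4 ± 2.97), ULBP2 (10.9 ± 4.12), ULBP3 (8.89 ± 4.88), MICB (7.72 ± 0.855), ULBP1 (1.98 ± 2.40), RAET1E (1.84 ± 0.445), RAET1L (1.24 ± 0.832) and RAET1G (0.211 ± 0.029; SD, n = 3 each). RAET1E held rank 4 in the knockdown, beside ULBP2, and the library ranges of these neighbours overlapped. In the control, RAET1E held rank 6, with a range that overlapped those of ULBP1 and RAET1L. Neighbours whose ranges did not overlap were MICB and RAET1E, and ULBP2 and ULBP1, in the knockdown, and MICB and ULBP1, and RAET1L and RAET1G, in the control.

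The summed FPKM of the 8 genes was 44.7, 43.5 and 38.7 in knockdown libraries 1 to 3, against 50.3, 41.1 and 44.2 in control libraries 1 to 3. The sums of the groups overlapped, at means of 42.3 ± 3.18 in the knockdown and 45.2 ± 4.69 in the control (SD, n = 3 each). Summed as CPM, which is not scaled to gene length, the means were 92.9 ± 14.9 in the knockdown and 88.7 ± 15.2 in the control (SD, n = 3 each), so the order of the means turned with the scale, and these groups overlapped too. RAET1E made up 14.8%, 13.3% and 13.8% of the summed FPKM in knockdown libraries 1 to 3, against 2.67%, 5.37% and 4.44% in control libraries 1 to 3. ULBP2 made up 14.1%, 13.1% and 13.7% of the summed FPKM in the knockdown, against 30.9%, 19.0% and 20.9% in the control. For MICA and MICB together, the summed FPKM was 25.2, 20.1 and 17.6 in knockdown libraries 1 to 3 and 23.0, 17.9 and 19.6 in control libraries 1 to 3, and these ranges overlapped.

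**Figure D3:**
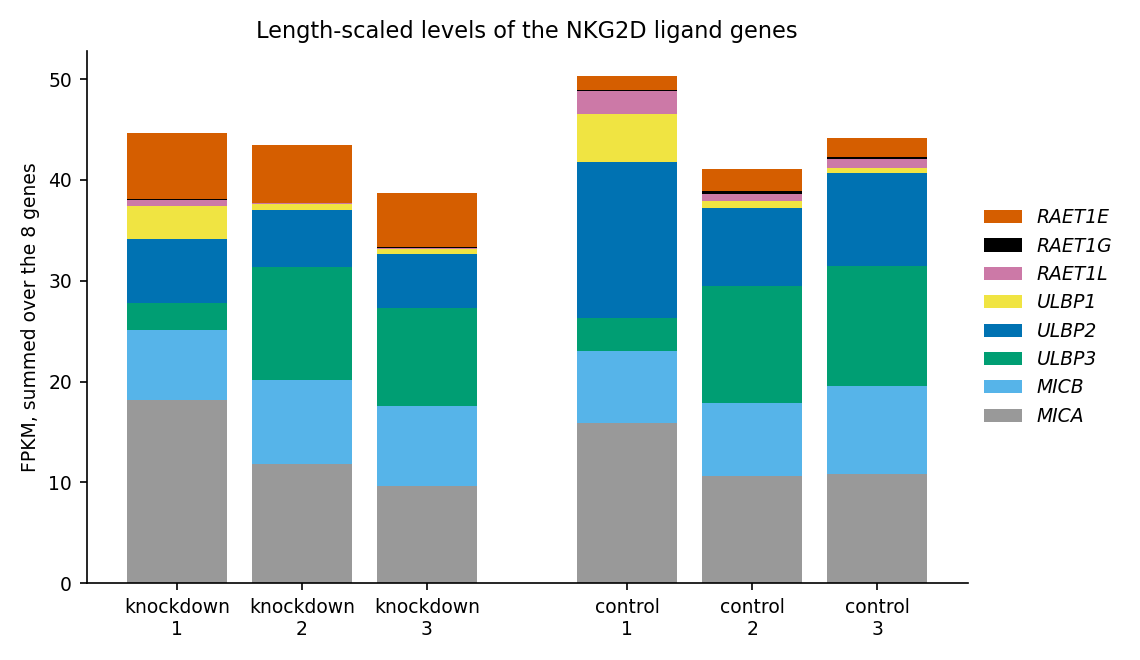
Stacked bars give the FPKM of the 8 genes in each library, the 3 knockdown libraries at left and the 3 control libraries at right, on an axis that starts at 0. The total heights overlap between the groups, while the RAET1E segment is 13.3% to 14.8% of the bar in the knockdown and 2.67% to 5.37% in the control.

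ULBP1 and ULBP3 differed more between replicate 1 and the other replicates than between the groups. ULBP1 in replicate 1 was 6.40 times the mean of replicates 2 and 3 in the knockdown and 8.11 times in the control. RAET1L in replicate 1 was 6.17 times that mean in the knockdown and 2.95 times in the control. ULBP3 went the other way, at 0.262 times in the knockdown and 0.286 times in the control. These are 3 of the 7 tested members with a replicate 1 at least 2-fold from the others in the same direction in both groups, where 13.3% of all tested genes were (8.5% with replicate 1 above). MICA in replicate 1 was 1.75 times the mean of replicates 2 and 3 in the knockdown and 1.51 times in the control, and MICB was 0.897 and 0.911 times. RAET1E differed in direction, at 1.24 times in the knockdown and 0.659 times in the control. ULBP2 in replicate 1 was 1.19 times that mean in the knockdown and 1.87 times in the control. The part that whatever set replicate 1 apart played in the group differences was not tested, but in replicates 2 and 3 alone the log2 fold changes were 1.43 for RAET1E, -0.62 for ULBP2 and -2.92 for RAET1L. In that fit 3 of the 7 tested members passed, where 25.3% of all tested genes did.

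**Figure D4:**
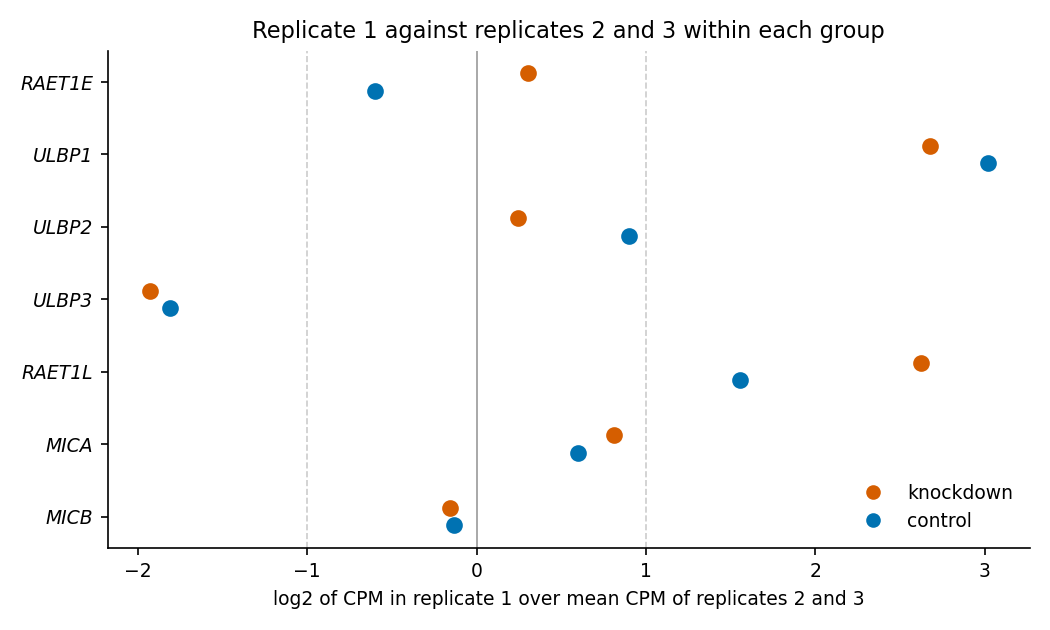
The horizontal axis is the log2 ratio of CPM in replicate 1 to the mean CPM of replicates 2 and 3, for knockdown and control libraries separately, with dashed lines at a 2-fold difference. ULBP1 (6.40 and 8.11 times in knockdown and control) and RAET1L lie to the right of the dashed line, ULBP3 lies to the left in both groups, and MICB lies near 0.

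Around the members, 34 other genes within 250 kb were tested. Of the 11 around the RAET1 and ULBP cluster, AL355312.5 rose in edgeR with the replicate number in the model (log2 fold change 1.68, adjusted p = 0.0414) and no other passed. Of the 11, 9 had log2 fold changes above 0 and 2 below (median 0.19), against 7426 and 7418 of all tested genes. Near RAET1E were log2 fold changes of 0.13 for LRP11, 0.19 for RAET1E-AS1 (ENSG00000268592) and 0.94 for the pseudogene AL355312.1. AL355312.1 had 16, 18 and 18 counts in knockdown libraries 1 to 3, against 8, 10 and 8 in control libraries 1 to 3. In the same order, the untested pseudogene CCT7P1 had 20, 9 and 10 counts, against 5, 3 and 2. Of the 23 around MICA and MICB, HLA-B and HLA-C (each with groups that overlapped) and TNF fell and no other passed. These 4 of 34 stand beside 13.5% of all tested genes, a share near that background. TNF, the gene of the inflammatory cytokine, averaged 3.75 CPM in the knockdown and 6.63 CPM in the control (log2 fold change -0.80, adjusted p = 0.0211 in edgeR with the replicate number). Without the replicate number edgeR called 0 of the 34, with 4 at an unadjusted p under 0.05, and DESeq2 called 0.

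The profiles most like each member were sought among 11762 protein-coding genes with a mean of at least 1 CPM, as the smallest root mean square difference (RMSD) of centred log2 CPM over the 6 libraries. Nearest to RAET1E were GDA, the guanine deaminase (0.175), the transcriptional inhibitor ID2 (0.218) and the transcription factor ONECUT2 (0.321). ULBP2 lay nearest to the lysyl oxidase LOXL1 (0.074) and the procollagen protease BMP1 (0.086), and RAET1L to the collagen VI chain COL6A1 (0.186) and SYNGR1 (0.258). ULBP1 lay nearest to PCK2, a mitochondrial phosphoenolpyruvate carboxykinase (0.151), and TP53INP1 (0.153). ULBP3 was nearest to the replication factor RFC3 (0.041) and to GMNN, the geminin gene (0.043). MICA lay nearest to STAC3 (0.060) and CRACR2B (0.064), and MICB to POMT2 (0.032) and AARS2 (0.039). Among the members themselves the RMSD of RAET1E to any other ran from 0.873 (MICB) to 2.05 (RAET1L), and the closest pair was MICA and MICB at 0.413.

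Of 6 tested genes of ligand shedding, 2 fell and none rose. For this list and those below, the background in edgeR with the replicate number was 13.5% of all tested genes (5.48% up and 8.01% down). Since the lists were chosen with earlier results of these data known, nothing is read from their counts. MMP14, the membrane-bound matrix protease, averaged 301 ± 62.1 CPM in the knockdown and 486 ± 126 CPM in the control (SD, n = 3 each; log2 fold change -0.68 ± 0.06 SE, edgeR adjusted p = 0.000544 with the replicate number). MMP2 averaged 1.37 CPM in the knockdown and 3.91 CPM in the control (log2 fold change -1.91, adjusted p = 0.0379 in the same edgeR fit), with groups that overlapped. It had 59, 1 and 2 counts in knockdown libraries 1 to 3, against 123, 31 and 18 counts in control libraries 1 to 3. Its knockdown mean thus rests mostly on library 1. ADAM9 (-0.06) and the disulfide isomerase PDIA6 (-0.13) did not pass. The median log2 fold change of the shedding genes was -0.12.

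Of 14 genes of GPI anchor assembly, PIGS, a subunit of the enzyme that attaches the anchor, rose and no other passed. PIGS averaged 62.6 ± 1.26 CPM in the knockdown and 52.6 ± 0.658 CPM in the control (SD, n = 3 each; log2 fold change 0.25, edgeR adjusted p = 0.04 with the replicate number). GPAA1 (0.10) and PIGT (-0.06), of the same enzyme, did not pass, and the list median was 0.04.

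Of 22 genes described as regulators of ligand transcripts, 2 rose and 5 fell. MYC (log2 fold change 0.37 ± 0.06 SE) and the DNA damage kinase ATR (0.22 ± 0.06 SE) rose. The cell cycle factors E2F1 (-0.503 ± 0.11 SE) and E2F2 (-0.507 ± 0.14 SE) fell, as did HSF1, the heat shock factor (-0.29), XBP1 of the unfolded protein response (-0.29) and the checkpoint kinase CHEK1 (-0.24). Their adjusted p in edgeR with the replicate number ran from 0.00914 for MYC to 0.0464 for CHEK1. The groups did not overlap for MYC and HSF1, and they overlapped for ATR, E2F1, E2F2, XBP1 and CHEK1. E2F2 in replicate 1 was 0.085 times the mean of replicates 2 and 3 in the knockdown and 0.140 times in the control. For E2F1 these ratios were 0.215 and 0.302. ATF4 (-0.15) and HDAC1 (-0.09) did not pass, and the list median was -0.11. ATR shares 16.4% of its exon bases with another gene.

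Of 9 tested ligands of other activating NK receptors, ICAM1, the integrin ligand, rose (log2 fold change 0.40 ± 0.07 SE, edgeR adjusted p = 0.00935 with the replicate number) and CD70, a ligand of the TNF family, fell (-0.92 ± 0.13 SE, adjusted p = 0.0044). ICAM1 averaged 209 ± 271 CPM in the knockdown and 150 ± 188 CPM in the control (SD, n = 3 each), with replicate 1 the highest in each group, and 23.6% of its exon bases are shared with another gene. CD70 had 24.0, 9.19 and 10.5 CPM in knockdown libraries 1 to 3, against 36.4, 22.1 and 20.7 CPM in control libraries 1 to 3. The groups overlapped for both ICAM1 and CD70. BAG6 (0.08) and PVR (-0.15) did not pass. Of 10 tested ligands of inhibitory lymphocyte receptors, HLA-B (-0.54 ± 0.08 SE), HLA-C (-0.496 ± 0.07 SE) and CD274, which encodes PD-L1 (-0.35 ± 0.10 SE), fell and no other passed, B2M (-0.06) and HLA-E (-0.13) included. Their adjusted p in edgeR with the replicate number was 0.00608, 0.00467 and 0.048. The groups overlapped for HLA-B and HLA-C, with replicate 1 the highest in each group. HLA-B in replicate 1 was 9.06 times the mean of replicates 2 and 3 in the knockdown and 7.56 times in the control. For HLA-C these ratios were 3.33 and 3.28. Of the HLA-B exon bases, 18.9% are shared with another gene. HLA-B and HLA-C are paralogs whose shared sequence was not measured here, so the division of their reads is uncertain. The list medians were 0.03 for the activating and -0.11 for the inhibitory ligands. Over the 64 tested genes of these lists and the melanocyte markers, 15 passed with the replicate number, where 13.5% of all tested genes did. Nothing is read from that share, since the lists were chosen with earlier results of these data known. Without the replicate number edgeR called 0, with 2 at an unadjusted p under 0.05, and DESeq2 called 0.

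**Figure D5:**
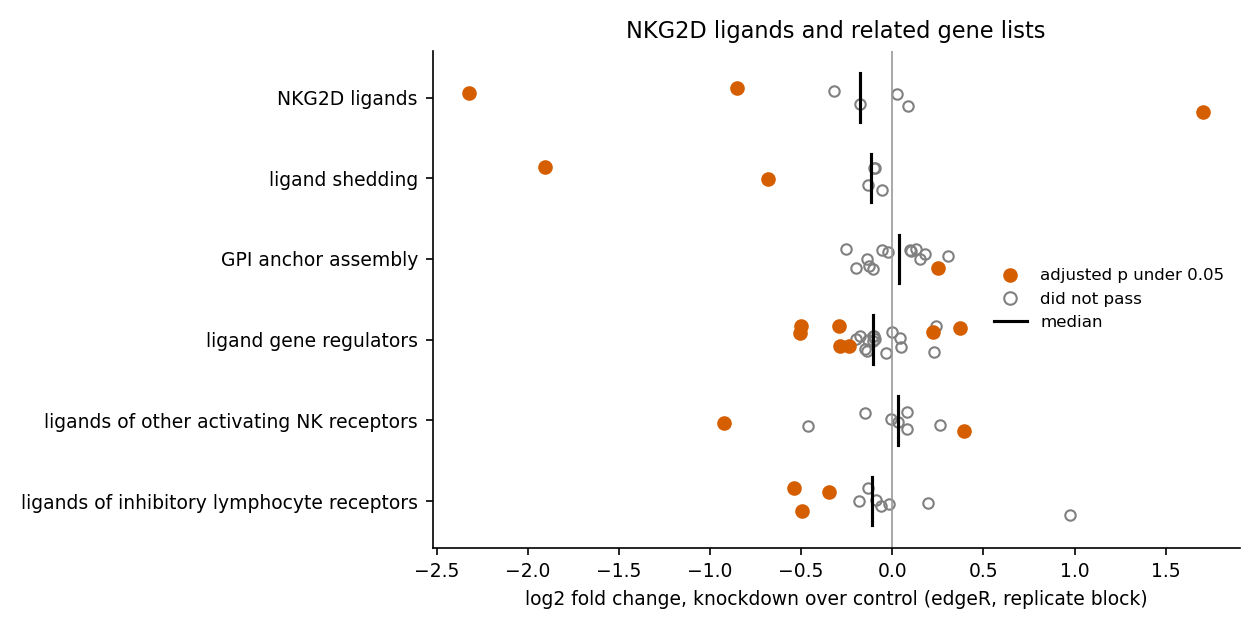
Each point is the log2 fold change of 1 tested gene, knockdown over control, from edgeR with the replicate number in the model, by list, with filled points past an adjusted p of 0.05 and a vertical bar at the list median. The NKG2D ligands span from -2.32 to 1.71 around a median of -0.18, and the other 5 lists shown have medians between -0.12 and 0.04. The melanocyte markers (median 0.46 over 3 tested genes) are not drawn.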

How the data were processed

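Gene expression was measured by RNA-seq in 6 libraries of Mum-2b cells. The authors deposited raw gene counts and FPKM values scaled to gene length and depth, per the file headers. Per the submitters' processing notes the build is hg38. Aligner, counter and strand setting are not given in the sources used here. Coordinates and exon lengths of all 8 members in the deposited table equal those of GENCODE release 29.

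Counts were tested with edgeR 4.0.16 in R 4.3.3 (filterByExpr, TMM, robust quasi-likelihood F-test, Benjamini-Hochberg adjustment over 14844 genes, threshold 0.05). The SE given for edgeR is the absolute log2 fold change divided by the square root of its F statistic. The fit with the replicate number has 2 residual degrees of freedom. CPM use TMM-scaled library sizes. The planned design has no replicate term, and a fit blocked on replicate number was an alternative. Fold changes above come from the blocked fit unless stated, and the block changes the calls. Without the block, the adjusted p in edgeR was 0.349 for RAET1E, 0.678 for ULBP2 and 0.715 for RAET1L. Deviations from the group mean correlated at 0.821, 0.591 and 0.578 between same-numbered libraries 1 to 3, and the labels state no pairing. Libraries of different numbers were not compared. These deviations cancel within each group, so replicate 1 alone can raise the values for numbers 2 and 3. The correlations thus do not decide whether numbers 2 and 3 are matched. The block lowered the common biological variation to 8.2%, against 32.6% unblocked. DESeq2 1.42.0 and limma 3.58.1 were alternatives. Counting intervals (95%, exact binomial for ratios) reflect counting error alone. Reads lacking molecular identifiers can be copies of 1 molecule, in which case these intervals are too narrow.

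The members and gene lists were chosen with earlier results of these data known. Named genes are the members, genes whose exons overlap theirs, the 2 nearest profiles per member (3 for RAET1E), and per list all genes that passed with the block and up to 2 of highest level that did not. TNF, LRP11, AL355312.1, CCT7P1, RAET1K, RAET1M, PPP1R14C and single melanocyte, NK and T cell markers were named after their values were seen. Promoter sequences are from RefSeq (GRCh38.p14), and 8 of 8 members matched.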

Additional observations from a re-analysis of the deposited data

How the results depend on the processing

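Without the replicate block, edgeR's count of genes past the threshold stayed at 0 with other size factors, without a filter and with a 5 CPM minimum mean. DESeq2 without the block called 161 genes and 1 member, and put NELFCD at -1.279. The block changed the counts, and the cause of differences between settings was not tested. With the replicate block edgeR called 2002 genes, 3 members, 15 genes of the other lists and 4 neighbours. Blocked fits gave 2040, 3, 14 and 4 with RLE size factors, 2888, 3, 17 and 6 with no filter, and 1798, 2, 11 and 3 with a 5 CPM minimum mean, where RAET1L was not tested. Blocked DESeq2 gave 1358, 2, 10 and 3, and limma-voom gave 2110, 3, 16 and 4. On log2(FPKM + 1) and log2(FPKM + 0.1), blocked limma gave 575 and 685 genes, 2 and 2 members, 5 and 7 list genes, and 3 and 4 neighbours. Replicates 2 and 3 alone gave 3758, 3, 24 and 6. NELFCD was at -1.303, -1.313, -1.319, -1.288, -1.321, -1.288, -1.172, -1.318 and -1.147 in these blocked or restricted fits, in the same order.

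Leaving out 1 library in turn without the block gave 0 genes, 0 members, 0 list genes and 0 neighbours, and NELFCD at -1.451 to -1.029. Leaving out 1 replicate pair with the block gave 4090, 932 and 1760 genes (without pairs 1, 2 and 3), 3 members each time, 7 to 24 list genes, 2 to 6 neighbours and NELFCD at -1.147, -1.345 and -1.446. The log2 fold change of RAET1E ran from 1.29 to 1.87 over all settings and that of ULBP2 from -1.09 to -0.53. That of RAET1L ran from -3.63 to -0.80, the smallest on log2(FPKM + 1), whose pseudocount understates changes of low genes. With 1 library left out and no block, ULBP1 ranged from -1.892 to 1.342, ULBP3 from -0.558 to 0.239 and MICA from -0.221 to 0.333. MICB ranged from -0.02807 to 0.112 in these fits, so the directions of these genes turned. Such a fit leaves the dropped replicate number in 1 group only. With a pair left out and the block kept, ULBP1 ran from -0.422 to -0.136, ULBP3 from -0.276 to -0.126 and MICA from 0.006 to 0.19. These kept their direction, while MICB ran from -0.0636 to 0.0988 and turned. ULBP2 did not pass in blocked limma on FPKM with either pseudocount, and RAET1L had no adjusted p in DESeq2. Counts of 1 to 5 per library leave RAET1G without a usable fold change.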

Other observations

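The RAET1K pseudogene lies inside the RAET1 and ULBP cluster (chromosome 6, 149998019 to 150005157, minus strand). It had 6, 21 and 12 counts in knockdown libraries 1 to 3 and 12, 9 and 10 counts in control libraries 1 to 3, and these ranges overlapped. The other pseudogene, RAET1M, had 0 counts in each of the 6 libraries. PPP1R14C, which lies within 250 kb of a cluster gene, averaged 1.02 CPM in the knockdown and 0.578 CPM in the control, with groups that did not overlap and an adjusted p of 0.223 in edgeR with the replicate number.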
